A study of Mus musculus with 6 samples.

Results

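Ribosome biogenesis and the genes that the transcription factor MYC is known to drive were examined here in B16F10, a pigmented mouse melanoma cell line, with and without the gene for annexin A10. The study concerns the part of annexin A10, which binds membranes when calcium is present, in melanoma metastasis. The module consists of 40 genes of a fixed name list, taken by gene name from a deposited expression table of 51912 genes. The list was chosen with earlier results of these data known. All 40 were found in the table, and 39 of them entered the test among 12068 genes that reached 1 TPM in 3 or more libraries. The remaining member, Mycn, was listed at 0 TPM in all 3 A10KO libraries and at 0, 0.13 and 0 TPM in the WT libraries. TPM is a relative transcript level corrected for the length of the transcript and for the library total.

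Ribosome production starts in the nucleolus, where RNA polymerase I copies the ribosomal RNA genes into a long precursor. Small nucleolar RNAs held in protein particles (snoRNPs) guide chemical modification of that precursor, and many assembly factors cut, fold and pack it into the small and the large ribosomal subunit. MYC binds with its partner MAX to short DNA words called E-boxes, and a large part of this machinery is known to follow MYC levels in growing cells, melanoma cells included.

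The A10KO group held 3 libraries of ANXA10-/- cells, which the labels number replicate 1, replicate 13 and replicate 14. The WT group held 3 libraries of unmodified B16F10 cells, replicates 1, 2 and 3. The labels give no treatment, no guide or allele and no culture time, and they do not say whether the numbers stand for clones, cultures or preparations. The p-values below therefore rest on the variation among these 6 libraries alone, and that variation may be technical.

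Anxa10 was listed at 0 TPM in all 6 libraries, WT included, so the targeted gene gave no check of the labels. Melanocyte lineage genes were present, with 9 of 9 tested and a summed level of 9540 to 11400 TPM in A10KO libraries and 9030 to 10100 TPM in WT libraries. Among genes that mark other cells, 7 of 8 leukocyte genes, 5 of 7 fibroblast genes, 4 of 6 endothelial genes and 6 of 6 epithelial genes stayed under 1 TPM in every library, with Cd3e, Lum, Emcn and Epcam at 0. Their summed level was 0.91 to 1.56 TPM in A10KO and 2.86 to 5.52 TPM in WT for leukocyte genes, and 0.92 to 3.13 TPM in A10KO and 3.04 to 3.45 TPM in WT for fibroblast genes. For endothelial genes it was 21.6 to 38.1 TPM in A10KO and 14.2 to 23.5 TPM in WT, most of it from Tek and Vwf. In bulk RNA, fewer cells of a type and less RNA per cell cannot be told apart. The depth of the libraries is unknown, since TPM keeps no record of it.

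A pair of libraries stood apart from the others of their group. WT replicates 1 and 3 lay very close, with a median absolute log2 difference of 0.051 over the members and 0.095 over all genes tested, whereas WT replicate 2 differed from WT replicate 1 by 0.403 over the members and by 0.21 over all genes tested. A10KO replicate 13 had 14.7% of its TPM in mitochondrially encoded transcripts, against 7.93% and 7.37% in A10KO replicates 1 and 14 and 6.32% to 6.56% in the WT libraries. A10KO replicate 14 lay nearer to WT replicates 1 and 3 than to the other A10KO libraries. Over all genes tested its difference was 0.167 and 0.175 from WT replicates 1 and 3. It was 0.267 and 0.351 from A10KO replicates 1 and 13. Over the members the same values were 0.125, 0.122, 0.149 and 0.226. For many members, results are given below with and without WT replicate 2 or A10KO replicate 13.

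As a group, the ribosome biogenesis and MYC target genes gave no member that passed the test in either direction. The test was limma, a linear model fitted over all genes tested, with Benjamini-Hochberg adjustment and a threshold of 0.05. Of 39 tested members, 0 had a limma adjusted p under 0.05, where 0.0414% of all genes tested did. Log2 changes, A10KO minus WT on the log2(TPM + 1) scale, ran from -0.29 for Max to 0.64 for Ppan, and limma adjusted p-values ran from 0.502 to 0.992. The median change of the members was 0.16, beside -0.04 over all genes tested, and 28 members lay above 0, which is 71.8% where the background was 43.5%. The 95% interval stayed within a log2 change of 1 in either direction for 38 of the 39, the exception being Ppan. At an unadjusted p under 0.05, 4 members were higher (10.3%, background 2.56%) and 0 were lower (background 6.27%).

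The higher median rested most on WT replicate 2 and in part on A10KO replicate 14. Without A10KO replicate 14 the median change was 0.06 over the members and -0.05 over all genes tested. Without WT replicate 2 it was -0.02 over the members and -0.02 over all genes tested. Then 18 members lay above 0 (46.2%, background 47.1%). In that fit 1 member, Ppan, was higher at an unadjusted p under 0.05 (2.56%, background 1.57%). Without WT replicate 3 that last count was also 1 (background 1.3%). The 6 values of a gene did not overlap between the groups for 7 members, all of them higher in A10KO (17.9%, background 5.61%), and for 0 members that were lower (background 11.5%). Set against WT replicates 1 and 3 alone, 7 members were higher in every A10KO library (17.9%, background 10.6%). They are the same 7, as their choice fixes, with 0 further ones. In the other direction 4 members, Fbl, Wdr74, Pes1 and Noc4l, were lower in every A10KO library (10.3%, background 14.7%).

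**Figure D1:**
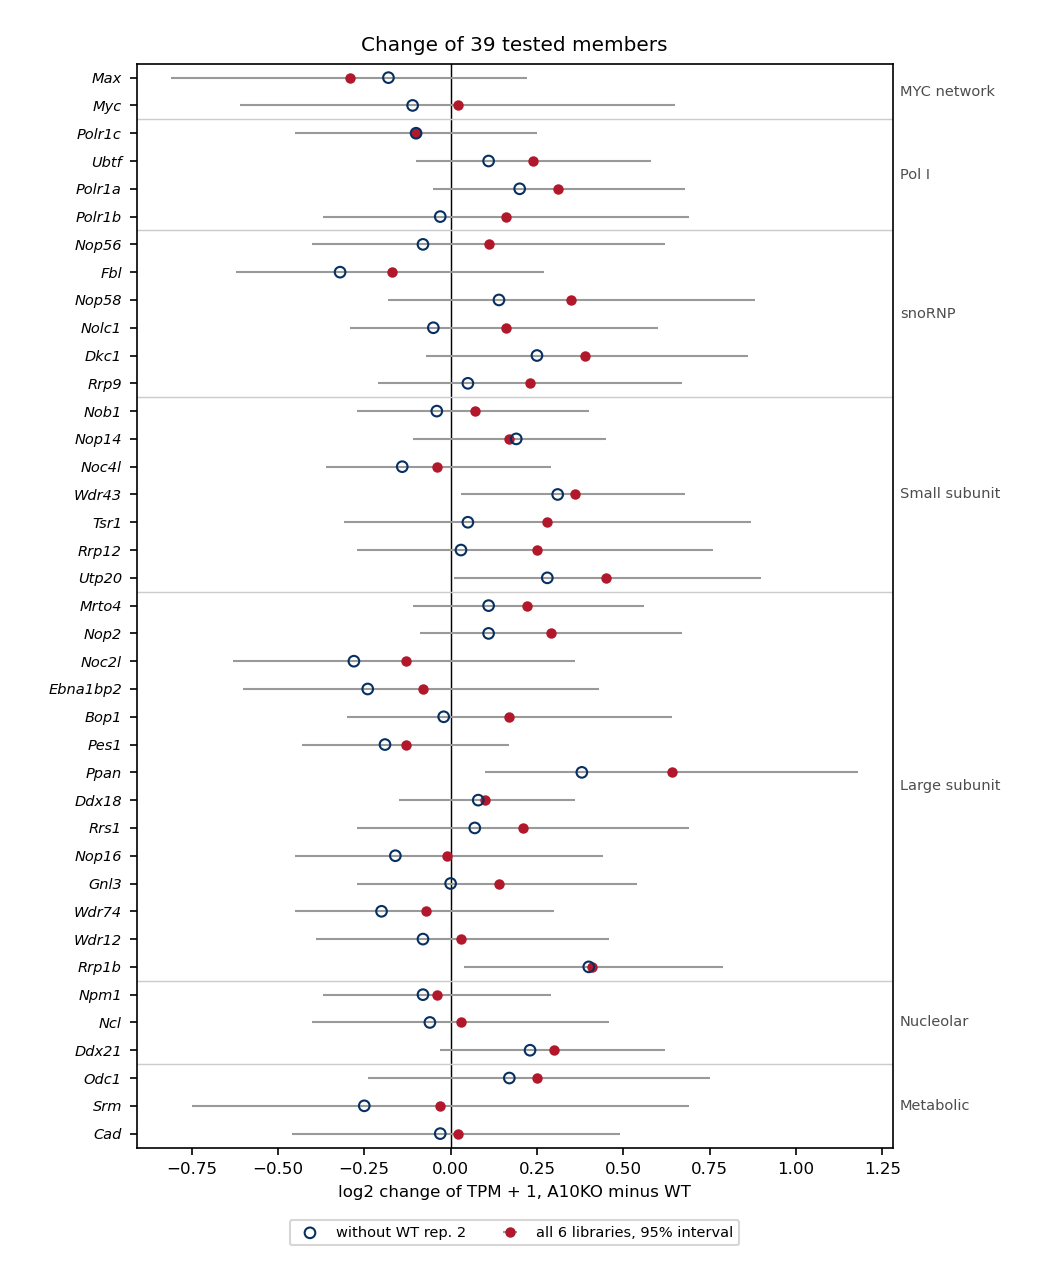
Log2 change of TPM + 1 (A10KO minus WT, horizontal axis) of the 39 tested members, grouped by role; filled points with lines are the estimates from all 6 libraries with their 95% intervals, open circles the estimates without WT replicate 2. The changes lie between -0.29 and 0.64, 4 of the 39 intervals exclude 0 before adjustment, and most open circles lie left of the filled points.

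Myc and Max, the MYC network genes of the list, showed no separation between the groups. Myc (GRCm38 chr15:61985391-61990374, plus strand, protein coding), which encodes the transcription factor itself, had 20.1, 41.1 and 36.5 TPM in A10KO replicates 1, 13 and 14, against 33.9, 25.4 and 33.7 TPM in WT replicates 1, 2 and 3. A10KO replicate 1 was the lowest of the 6 and A10KO replicate 13 the highest, so that the A10KO libraries enclosed all the WT libraries. The log2 change of Myc was 0.02 (SE 0.27, 95% interval -0.61 to 0.65, limma adjusted p = 0.984). It was -0.17 without A10KO replicate 13, -0.11 without WT replicate 2 and -0.31 without both. Max (chr12:76937269-76962201, minus strand, protein coding), the gene for the partner with which MYC binds DNA, had 31.6, 44.3 and 56.3 TPM in A10KO libraries and 52.2, 61.9 and 45.7 TPM in WT libraries. The A10KO libraries held the lowest value and the WT libraries the highest, with overlap between them. Max had the most negative log2 change of the module, -0.29 (SE 0.22, 95% interval -0.81 to 0.22, limma adjusted p = 0.748), and it was the member that stood highest in WT replicate 2.

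The E-box CACGTG, the DNA word that MYC and MAX bind, was looked for in the RefSeq promoter table of GRCm38.p6, whose windows run from 250 bases before to 50 bases after each start. The word reads the same on both strands. It was present for 6 of the 33 members in that table (18.2%), for 1083 of 8936 tested genes (12.1%) and for 2187 of 27025 genes of the whole table (8.09%). Counted by window, it was in 6 of 42 member windows (14.3%), in 10.2% of the windows of tested genes and in 7.15% of all windows. The matches are printed because they are where members carry the word within the windows searched, one of them belonging to Max. Bop1, Fbl, Myc, Npm1, Rrp12, Rrs1 and Srm had no window, and bases outside the windows were not searched. Each line gives the word in capitals with 10 bases of context on each side where the window reaches that far, read 5′ to 3′ on the gene's strand, in the order of the members' mean level.
Nop2, chr6:125131813-125131838, plus strand: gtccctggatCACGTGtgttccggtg
Pes1, chr11:3963967-3963992, plus strand: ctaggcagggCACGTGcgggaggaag
Max, chr12:76962236-76962261, minus strand: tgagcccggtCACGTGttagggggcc
Wdr43, chr17:71616222-71616247, plus strand: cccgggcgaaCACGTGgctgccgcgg
Tsr1, chr11:74898094-74898119, plus strand: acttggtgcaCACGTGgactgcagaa
Utp20, chr10:88826765-88826787, minus strand: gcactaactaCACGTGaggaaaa
Positions are counted from the starts of the RefSeq table, which differ for some genes from the GENCODE gene bounds printed with the members. Only the word of Nop2 lay wholly before its RefSeq start (3.03% of the members in the table, against 10.1% of tested genes), with its first base 60 bases ahead of it. The word in Max spanned its RefSeq start, and those of Pes1, Wdr43, Tsr1 and Utp20 lay within the 50 bases after theirs. A match describes these letters only and is not a measurement of binding. The log2 changes of these 6 genes were 0.29, -0.13, -0.29, 0.36, 0.28 and 0.45 in the order printed, so both signs occurred among them.

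RNA polymerase I genes were higher in the mean in A10KO for 3 of 4 members, with 0 past the test, and their median log2 change was 0.20. Role medians here and below include WT replicate 2, and none without it is given. Polr1a, the largest subunit of the enzyme, averaged 65.9 ± 8.83 TPM in A10KO and 52.9 ± 6.98 TPM in WT (SD, n = 3 each here and below). Its values overlapped by little, with the lowest A10KO library at 57.3 TPM and the highest WT library at 57.4 TPM. For Polr1a the log2 change was 0.31 (SE 0.16, limma adjusted p = 0.613). Polr1b, the second largest subunit, averaged 31.4 ± 6.81 TPM in A10KO and 28.0 ± 6.21 TPM in WT. Polr1c, a subunit shared with RNA polymerase III, was at 89.9, 64.3 and 86.3 TPM in A10KO libraries and at 87.4, 85.1 and 83.1 TPM in WT libraries. One value departed from an otherwise narrow range, that of A10KO replicate 13, at 0.729 of the mean of A10KO replicates 1 and 14. Ubtf, the factor that opens ribosomal RNA genes to the polymerase, was at 80.4, 90.9 and 84.9 TPM in A10KO libraries and at 80.8, 60.0 and 77.0 TPM in WT libraries. Ubtf had a log2 change of 0.24 (SE 0.14, limma adjusted p = 0.673), with 0.11 when WT replicate 2, the lowest library, was left out.

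The snoRNP members had a median log2 change of 0.19, with 0 of 6 past the test and 0 of 6 free of overlap. Nop56, a core protein of the box C/D particles that carry ribose methylation guides, had 298, 411 and 455 TPM in A10KO libraries against 412, 271 and 395 TPM in WT libraries. Fbl, the ribose methyltransferase of the same particles, had 223, 166 and 243 TPM in A10KO libraries against 259, 191 and 260 TPM in WT libraries. Both genes were low in 1 library of each group, Nop56 in A10KO replicate 1 and WT replicate 2, Fbl in A10KO replicate 13 and WT replicate 2. Nop56 had a log2 change of 0.11 (SE 0.22, limma adjusted p = 0.899), and of -0.08 without WT replicate 2. Fbl had a log2 change of -0.17 (SE 0.19, limma adjusted p = 0.815), and of -0.32 without WT replicate 2.

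Nop58, the partner of Nop56 in the particle, averaged 246 ± 53.7 TPM in A10KO and 194 ± 45.8 TPM in WT. Dkc1, which encodes dyskerin, the pseudouridine synthase of the box H/ACA particles, averaged 54.6 ± 12.2 TPM in A10KO and 41.1 ± 7.11 TPM in WT. Their log2 changes, 0.35 and 0.39, were 0.14 and 0.25 without WT replicate 2. Nolc1, a chaperone of snoRNPs, averaged 100 ± 8.06 TPM in A10KO and 91.4 ± 21.4 TPM in WT. Rrp9, a protein of the U3 particle, averaged 43.4 ± 4.94 TPM in A10KO and 37.3 ± 7.87 TPM in WT. All 4 were lowest of the 6 libraries in WT replicate 2.

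Many ribosome biogenesis genes are known to carry snoRNA genes in their introns, so that a host and its guides are transcribed together. By the GENCODE M21 annotation of GRCm38, 9 of 39 tested members (23.1%) hosted 24 snoRNA genes, against 202 of 11002 tested protein-coding genes (1.84%). The hosts were Ncl, Nop56, Nop58, Dkc1, Wdr43, Gnl3, Ppan, Tsr1 and Odc1. Of the 24, 12 held both TGATGA, the letters of box C, and CTGA, those of box D, in that order on their own strand, against 362 of 1507 annotated snoRNA genes (24.0%). These are matches of exact letters, with the last CTGA taken wherever it lay. Boxes with other letters were not counted. A guide from each of 3 hosts is printed, since the core proteins that bind these boxes, Nop56, Nop58 and Fbl, are members themselves; capitals mark box C and then box D, on the gene's own strand from 5′ to 3′.
Snord82, in Ncl, chr1:86356261-86356330, minus strand: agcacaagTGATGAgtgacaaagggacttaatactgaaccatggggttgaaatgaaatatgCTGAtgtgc
Snord110, in Nop56, chr2:130275506-130275573, plus strand: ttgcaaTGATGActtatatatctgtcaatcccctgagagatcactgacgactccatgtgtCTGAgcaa
Snord11, in Nop58, chr1:59704790-59704873, plus strand: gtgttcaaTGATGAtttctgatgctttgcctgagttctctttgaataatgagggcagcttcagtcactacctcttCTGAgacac
All 24 of these snoRNA genes were listed at 0 TPM in all 6 libraries, so the guides gave no value beside their hosts.

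Small subunit assembly genes had the highest median change of the roles, 0.25 with WT replicate 2 included, and 0 of 7 passed the test. Of these members, 3 (42.9%) were free of overlap and higher, where 5.61% of all genes tested were. Utp20 (chr10:88746607-88826804, minus strand, protein coding), a large scaffold of the early small subunit precursor, had 21.8, 18.1 and 21.3 TPM in A10KO libraries against 17.3, 11.4 and 15.8 TPM in WT libraries. Every A10KO library was above every WT library, and WT replicate 2 was the lowest. The log2 change of Utp20 was 0.45 (SE 0.19, 95% interval 0.01 to 0.90, limma adjusted p = 0.564), and 0.28 without WT replicate 2. Wdr43 (chr17:71615895-71659031, plus strand, protein coding), a scaffold subunit of the same early precursor, had 37.7, 44.1 and 34.7 TPM in A10KO libraries against 31.3, 28.1 and 30.6 TPM in WT libraries. The groups did not overlap. Its log2 change was 0.36 (SE 0.14, 95% interval 0.03 to 0.68, limma adjusted p = 0.528), and 0.31 without WT replicate 2. The fold of Wdr43, here and below the ratio of mean TPM in A10KO to that in WT, was 1.30. Nop14 (chr5:34638536-34660148, minus strand, protein coding), which in yeast joins the precursor together with Noc4, the relative of Noc4l, had 50.2, 58.2 and 49.7 TPM in A10KO libraries against 44.9, 48.1 and 47.1 TPM in WT libraries. Unlike most members, Nop14 was not low in WT replicate 2, which stood at 1.05 of the mean of WT replicates 1 and 3. The log2 change was 0.17 (SE 0.12, limma adjusted p = 0.740), and 0.19 without that library.

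Nob1, the endonuclease that makes the final cut of small subunit ribosomal RNA, had 64.0, 54.2 and 63.5 TPM in A10KO libraries and 61.6, 49.4 and 62.8 TPM in WT libraries. The groups overlapped almost fully, with 1 low library in each. Noc4l averaged 39.9 ± 2.78 TPM in A10KO and 41.1 ± 5.02 TPM in WT. Tsr1, a late factor that keeps the immature subunit from translating, averaged 35.0 ± 9.20 TPM in A10KO and 28.8 ± 7.47 TPM in WT. Tsr1 was far apart between libraries of 1 group, with A10KO replicate 13 at 1.51 and WT replicate 2 at 0.609 of the mean of the other libraries of their group. Rrp12, an export and assembly factor, averaged 22.2 ± 3.14 TPM in A10KO and 18.8 ± 4.71 TPM in WT. Log2 changes of these 4 were 0.07, -0.04, 0.28 and 0.25, each within the spread between libraries. Without WT replicate 2 they were -0.04, -0.14, 0.05 and 0.03 in the same order.

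Among 14 large subunit assembly genes, 3 (21.4%, background 5.61%) were free of overlap and higher and 0 passed the test, with a median log2 change of 0.12. Ppan (chr9:20888175-20892178, plus strand, protein coding), an assembly factor for the large subunit precursor, had 82.1, 104 and 84.5 TPM in A10KO libraries against 68.1, 39.3 and 69.3 TPM in WT libraries. The groups did not overlap, and WT replicate 2 stood at 0.572 of the mean of the other WT libraries, the lowest such ratio of any member. Ppan had the highest log2 change of the module, 0.64 (SE 0.23, 95% interval 0.10 to 1.18, limma adjusted p = 0.502), a fold of 1.53. Without WT replicate 2 the log2 change was 0.38, with an unadjusted limma p of 0.049. Rrp1b (chr17:32036100-32062865, plus strand, protein coding), a nucleolar regulator of ribosomal RNA processing, had 23.7, 32.6 and 30.8 TPM in A10KO libraries against 22.6, 20.8 and 20.7 TPM in WT libraries. The A10KO libraries were all higher, and the 3 WT values were close together. The log2 change of Rrp1b was 0.41 (SE 0.16, 95% interval 0.04 to 0.79, limma adjusted p = 0.522), a fold of 1.36, and 0.40 without WT replicate 2.

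Nop2 (chr6:125131909-125144753, plus strand, protein coding), a cytosine methyltransferase of large subunit ribosomal RNA, had 178, 171 and 180 TPM in A10KO libraries against 161, 112 and 166 TPM in WT libraries. The A10KO libraries were nearly equal and above all WT libraries, of which replicate 2 was far the lowest. Its log2 change of 0.29 (SE 0.16, 95% interval -0.09 to 0.67, limma adjusted p = 0.661) was 0.11 without that library. Mrto4, which holds the place of a ribosomal stalk protein during assembly, had 167, 200.0 and 201 TPM in A10KO libraries and 177, 138 and 172 TPM in WT libraries. A10KO replicate 1 lay among the WT values, so the groups overlapped, and the log2 change was 0.22 (SE 0.14, limma adjusted p = 0.708). Noc2l, a relative of the yeast factor Noc2, had 139, 85.6 and 125 TPM in A10KO libraries and 137, 102 and 141 TPM in WT libraries. A10KO replicate 13 was the lowest of the 6, at 0.647 of the mean of the other A10KO libraries. Noc2l had a log2 change of -0.13 (SE 0.21, limma adjusted p = 0.873), with 0.07 when A10KO replicate 13 was left out.

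Pes1, Bop1 and Wdr12 encode the 3 proteins of the PeBoW complex, which is needed to process large subunit ribosomal RNA. Pes1 averaged 88.1 ± 9.80 TPM in A10KO and 96.2 ± 6.57 TPM in WT. Bop1 averaged 110 ± 19.4 TPM in A10KO and 97.9 ± 20.8 TPM in WT. Wdr12 averaged 31.8 ± 5.92 TPM in A10KO and 30.9 ± 4.11 TPM in WT. Log2 changes of the 3 partners were -0.13, 0.17 and 0.03 in that order, each within the spread between libraries, and the lowest library was A10KO replicate 13 for Pes1, WT replicate 2 for Bop1 and A10KO replicate 1 for Wdr12.

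Of the other large subunit members, Ebna1bp2, an assembly factor, averaged 106 ± 24.2 TPM in A10KO and 112 ± 23.7 TPM in WT. Gnl3, which encodes the nucleolar GTPase nucleostemin, averaged 55.7 ± 8.06 TPM in A10KO and 50.7 ± 8.17 TPM in WT. Rrs1, a factor needed in yeast to load the small ribosomal RNA of the large subunit, averaged 72.5 ± 16.5 TPM in A10KO and 62.0 ± 10.6 TPM in WT. None of these 3 changed beyond its spread, with log2 changes of -0.08, 0.14 and 0.21. Nop16 averaged 59.3 ± 10.2 TPM in A10KO and 59.8 ± 11.1 TPM in WT, with a log2 change of -0.01 that turned to 0.04 under median-of-ratios scaling. Wdr74 averaged 46.1 ± 5.13 TPM in A10KO and 48.8 ± 7.55 TPM in WT. Ddx18, a nucleolar RNA helicase, averaged 74.6 ± 2.65 TPM in A10KO and 69.4 ± 2.99 TPM in WT and was among the steadiest members in both groups.

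**Figure D2:**
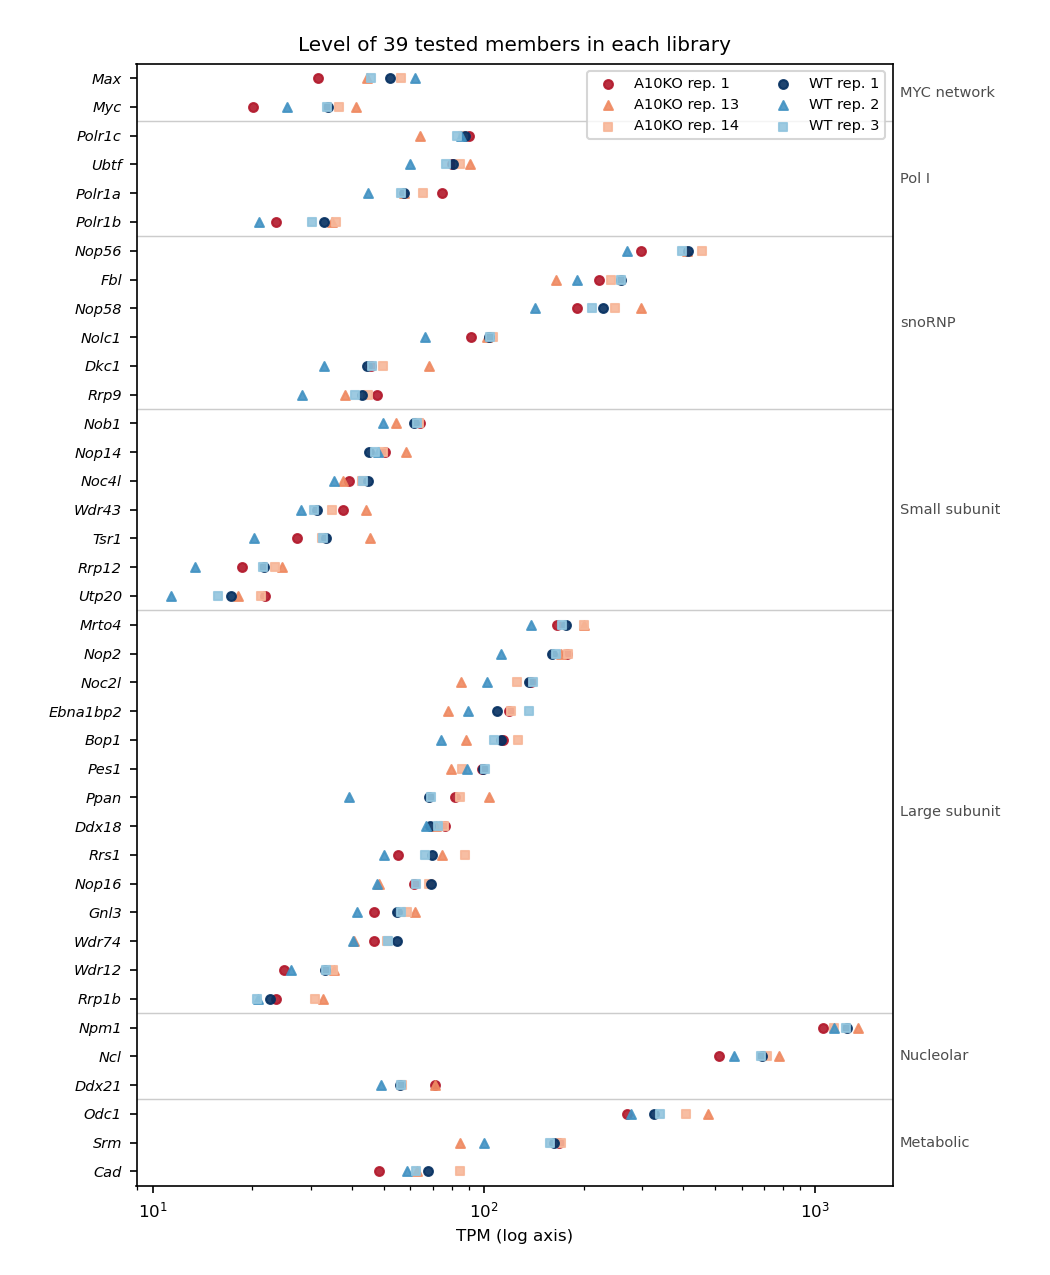
TPM on a log axis (horizontal) of the 39 tested members in each of the 6 libraries, grouped by role, with A10KO and WT libraries marked apart. Mean levels over all 6 libraries run from 17.6 to 1200 TPM, and the libraries of the groups interleave for 32 members.

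The abundant nucleolar proteins gave the highest levels of the module. Npm1, which encodes nucleophosmin, a histone and ribosome chaperone, had 1054, 1349 and 1143 TPM in A10KO libraries and 1247, 1141 and 1242 TPM in WT libraries. Its values were mixed between the groups, and its estimate, a log2 change of -0.04 (SE 0.14, limma adjusted p = 0.951), turned to 0.11 under quantile normalization. Npm1 has many near-identical pseudogenes, so its level is uncertain. Ncl, which encodes nucleolin, an RNA-binding protein of the nucleolus, had 513, 779 and 718 TPM in A10KO libraries and 689, 569 and 688 TPM in WT libraries. The A10KO libraries held both the lowest and the highest value, and the log2 change was 0.03 (SE 0.18, limma adjusted p = 0.972). Ddx21 (chr10:62580251-62602281, minus strand, protein coding), an RNA helicase that acts on ribosomal RNA transcription and processing, had 71.3, 71.0 and 56.7 TPM in A10KO libraries against 55.8, 49.0 and 56.1 TPM in WT libraries. Its groups did not overlap, but A10KO replicate 14 was next to the WT values. Ddx21 had a log2 change of 0.30 (SE 0.14, 95% interval -0.03 to 0.62, limma adjusted p = 0.586), a fold of 1.24, and 0.23 without WT replicate 2.

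The metabolic MYC targets of the list had wide spreads within A10KO. Odc1, the enzyme that makes putrescine and starts polyamine synthesis, had 270, 476 and 406 TPM in A10KO libraries and 325, 278 and 340 TPM in WT libraries. A10KO replicates 13 and 14 were above all WT libraries and replicate 1 was below all of them. The log2 change of Odc1 was 0.25 (SE 0.21, 95% interval -0.24 to 0.75, limma adjusted p = 0.770). Srm, the spermidine synthase of the next step, had 169, 84.5 and 171 TPM in A10KO libraries and 162, 100 and 158 TPM in WT libraries. It was low in 1 library of each group, A10KO replicate 13 and WT replicate 2, with the other 4 close together. Its log2 change was -0.03 (SE 0.31, 95% interval -0.75 to 0.69, limma adjusted p = 0.983), with -0.25 without WT replicate 2 and 0.31 without A10KO replicate 13. Cad, the enzyme of the opening steps of pyrimidine synthesis, averaged 65.2 ± 18.3 TPM in A10KO and 62.9 ± 4.76 TPM in WT, and its log2 change was 0.02.

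The members shared a deviation inside the WT group. It was noticed after the values were seen and is given as a description. WT replicate 2 was the lowest of the 3 WT libraries for 35 of 39 members (89.7%), where this held for 29.7% of all genes tested. It was the lowest of all 6 libraries for 24 members (61.5%, background 10.7%). The members' ratio of WT replicate 2 to the mean of WT replicates 1 and 3 ran from 0.572 to 1.26 with a median of 0.751, and 37 of 39 were below 1, while the median over all genes tested was 1.06. The summed TPM of the members was 4840, 5690 and 5690 in A10KO libraries and 5470, 4370 and 5440 in WT libraries. WT replicate 2 thus had the lowest sum, although it had the most genes at 1 TPM or more, 12236, against 11889 to 12085 in the other 5 libraries.

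**Figure D3:**
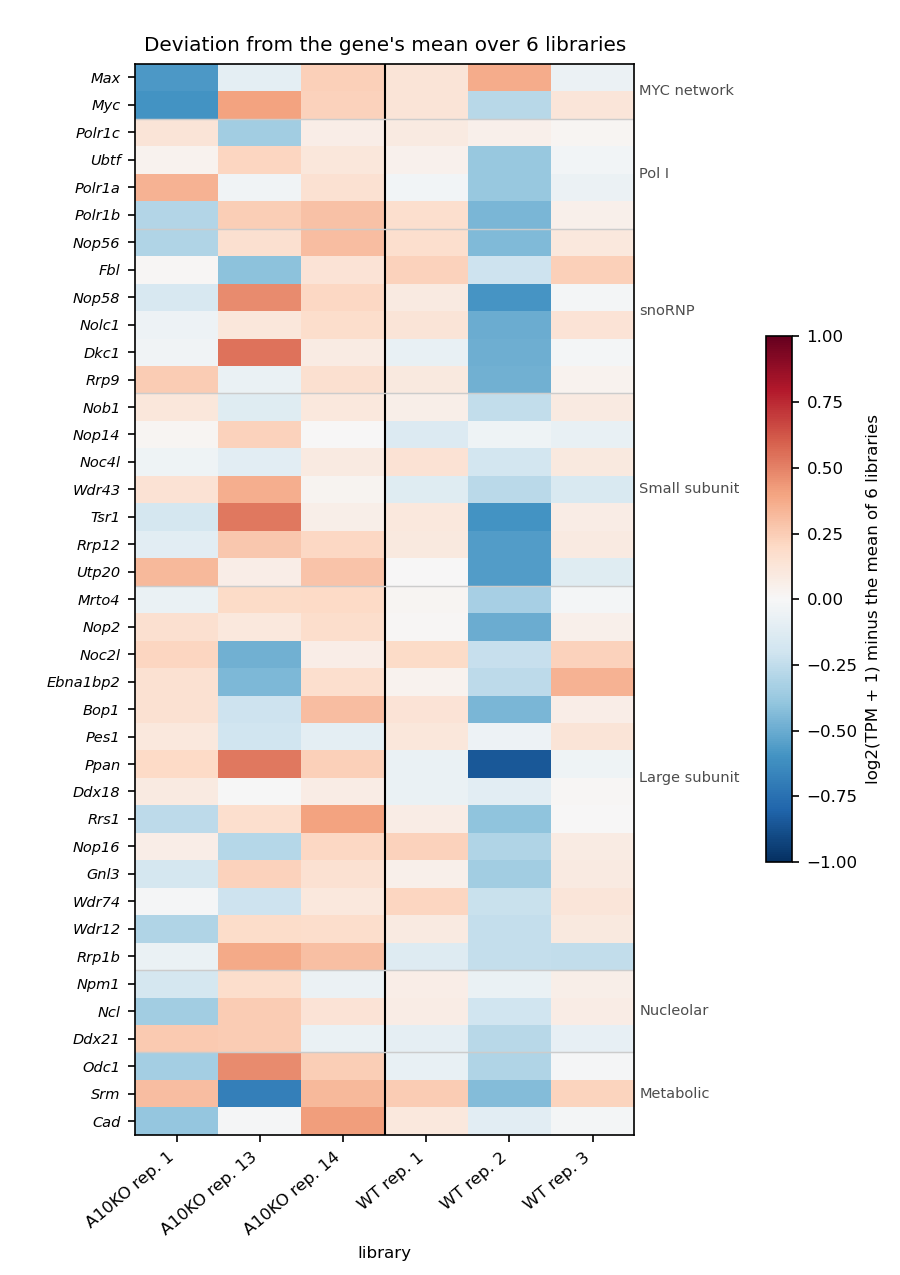
Deviation of log2(TPM + 1) from each gene's mean over the 6 libraries (colour) for the 39 tested members (rows, by role) in A10KO libraries left of the line and WT libraries right of it. The column of WT replicate 2 is low for most members, with Max the clearest exception, and the columns of WT replicates 1 and 3 are pale.

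Each of the other libraries was the lowest of the 6 for 7 members or fewer. A10KO replicate 1 was the lowest for 7 members (17.9%, background 32.2%), namely Myc, Max, Ncl, Npm1, Wdr12, Odc1 and Cad. A10KO replicate 13 was the lowest for 6 (15.4%, background 24.4%), namely Fbl, Pes1, Ebna1bp2, Noc2l, Polr1c and Srm. A10KO replicate 14 was the lowest for 0 members, where the background was 15.0%. WT replicate 1 was the lowest for Nop14 alone (2.56%, background 9.87%) and WT replicate 3 for Rrp1b alone (background 7.83%). A10KO replicate 13 was also the highest of the 6 for 15 members (38.5%, background 31.6%), with Myc, Nop58, Dkc1, Tsr1, Ppan and Odc1 among them.

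**Figure D4:**
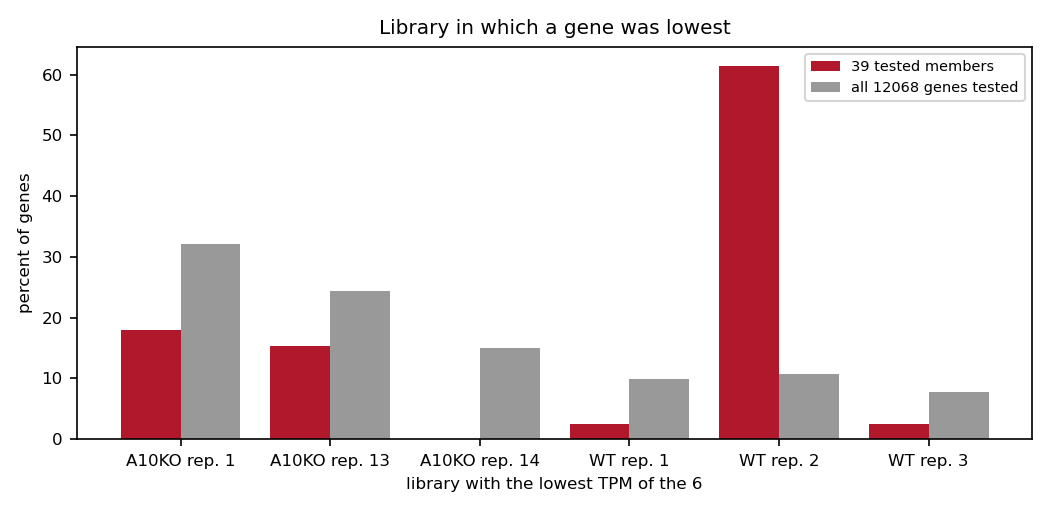
Percent of genes (vertical axis) for which each library (horizontal axis) had the lowest TPM of the 6, for the 39 tested members and for all 12068 genes tested. WT replicate 2 holds 61.5% of the members against 10.7% of all genes, and A10KO replicate 14 holds none of the members.

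Other values moved with these libraries, and their part in the members' levels was not tested. The immediate early genes, which react to growth signals and handling, had a summed level of 249, 196 and 225 TPM in A10KO libraries and 313, 460 and 336 TPM in WT libraries, so WT replicate 2 was the highest. Base composition and transcript length were set against the members' deviations as a description across genes, which share their libraries. Both were taken from the longest annotated protein-coding transcript of a gene, which may not be the one expressed. The log2 ratio of A10KO replicate 13 to A10KO replicates 1 and 14 had a Spearman rho of -0.49 with the GC content of the transcript over 39 members and of -0.35 over 10982 genes. For WT replicate 2 against WT replicates 1 and 3 the rho was -0.28 over the members and -0.19 over all. With transcript length the rho for A10KO replicate 13 was 0.32 over the members and 0.38 over all. For WT replicate 2 the rho with length was -0.01 over the members and 0.29 over all. The 19 members above the median GC content had a median log2 ratio of -0.06 in A10KO replicate 13, and the 20 at or below it had 0.19. In WT replicate 2 the same medians were -0.40 and -0.38.

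Genes of the same pathway outside the module gave 0 calls by limma in every list, where 0.0414% of all genes tested were called. Over 124 tested of 125 listed other ribosome biogenesis genes the median log2 change was 0.05, with 81 above 0 (background 43.5%). At an unadjusted p under 0.05, 1 was higher (background 2.56%) and 3 were lower in A10KO (background 6.27%). In 18 of them all A10KO values were higher than all WT values (14.5%, background 5.61%), and in 5 all were lower (4.03%, background 11.5%). WT replicate 2 was the lowest WT library for 91 of them (73.4%, background 29.7%). The low position of that library was therefore also present in genes of this machinery that are not members. By step, it held for 68.8% of 16 other RNA polymerase I genes, 83.3% of 12 other snoRNP genes, 76.1% of 46 other small subunit genes and 70.0% of 50 other large subunit genes.

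Single genes of these lists with the largest changes had limma adjusted p-values far above the threshold. Taf1d, a subunit of the RNA polymerase I promoter factor, had 71.0, 102 and 71.4 TPM in A10KO libraries against 64.7, 54.2 and 51.2 TPM in WT libraries, with all A10KO values higher (log2 change 0.50, limma adjusted p = 0.502). Ttf1, which ends transcription by RNA polymerase I, was at 3.12, 5.82 and 11.0 TPM in A10KO libraries and at 4.69, 4.50 and 4.83 TPM in WT libraries. Its WT values were even and its A10KO values were spread on both sides of them. Wdr75, a small subunit factor, had 44.7, 83.3 and 71.6 TPM in A10KO libraries and 49.2, 38.9 and 47.4 TPM in WT libraries, with A10KO replicate 1 inside the WT range (log2 change 0.51, limma adjusted p = 0.572). Pih1d1, a cofactor of snoRNP assembly, had 56.1, 35.5 and 61.3 TPM in A10KO libraries against 74.6, 65.2 and 65.3 TPM in WT libraries, all lower in A10KO (log2 change -0.45, limma adjusted p = 0.580). Nvl, an ATPase of large subunit maturation, had 16.8, 18.3 and 19.3 TPM in A10KO libraries against 22.7, 30.5 and 21.7 TPM in WT libraries, again all lower in A10KO (log2 change -0.43, limma adjusted p = 0.542). The remaining genes named by the same rule, Nop10, Dhx37 and Urb1, had log2 changes of -0.23, 0.46 and 0.43.

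Antagonists and partners of MYC, 14 of 15 of them tested, had a median log2 change of -0.04, with 1 free of overlap that was higher (7.14%, background 5.61%) and 3 that were lower in A10KO (21.4%, background 11.5%). At an unadjusted p under 0.05, 0 were higher (background 2.56%) and 1, Mxi1, was lower (background 6.27%). Mxi1, which competes with MYC for MAX, had 23.0, 17.8 and 17.7 TPM in A10KO libraries against 23.8, 46.4 and 26.2 TPM in WT libraries. Mnt, another repressor that pairs with MAX, had 10.9, 9.21 and 10.2 TPM in A10KO libraries against 12.5, 18.3 and 12.3 TPM in WT libraries. Both were lower in every A10KO library than in every WT library, and both stood highest in WT replicate 2. The log2 changes were -0.64 (SE 0.26, limma adjusted p = 0.551) for Mxi1 and -0.45 (limma adjusted p = 0.566) for Mnt. Both estimates include WT replicate 2, and none without it is given. The genes were named for the size of these estimates. Over the 14 tested, WT replicate 2 was the lowest WT library for 5 (35.7%, background 29.7%). The median log2 difference of that library from the mean of WT replicates 1 and 3 was 0.17 over the list, beside 0.08 over all genes tested. The Mxi1 groups were apart by little, with A10KO replicate 1 at 23.0 TPM and WT replicate 1 at 23.8 TPM.

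Polyamine and nucleotide genes around Odc1, Srm and Cad gave different pictures for single enzymes. Amd1, which provides the aminopropyl donor that Srm uses, had 52.3, 58.8 and 52.5 TPM in A10KO libraries against 41.3, 36.6 and 42.9 TPM in WT libraries. Paox, which breaks acetylated polyamines down, had 4.54, 4.23 and 3.52 TPM in A10KO libraries against 6.36, 8.37 and 7.76 TPM in WT libraries. The groups of both genes were apart, Amd1 higher and Paox lower in A10KO, without passing the test. Their log2 changes were 0.43 (SE 0.13, limma adjusted p = 0.419) and -0.74 (SE 0.19, limma adjusted p = 0.339). Of the 10 other polyamine genes these were the 2 with an unadjusted p under 0.05, 1 higher (background 2.56%) and 1 lower (background 6.27%). The list had a median of -0.08, with 1 free of overlap that was higher and 2 that were lower. For the 18 other nucleotide synthesis genes the median was -0.07. Against the same backgrounds, 0 were free of overlap or had an unadjusted p under 0.05 in either direction. Ppat was at a log2 change of 0.30 and Impdh2 at -0.26.

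Other MYC-responsive genes, 24 of them, had a median log2 change of 0.03, with 0 at an unadjusted p under 0.05 (background 2.56% higher and 6.27% lower). In this list 1 was free of overlap and higher (4.17%, background 5.61%), and 0 were free of overlap and lower (background 11.5%). Ldha, the lactate dehydrogenase subunit of glycolytic cells, had 2125, 1196 and 1780 TPM in A10KO libraries and 1934, 2987 and 2193 TPM in WT libraries. It was highest in WT replicate 2, and its log2 change was -0.50 (limma adjusted p = 0.634). Ccnd2, a G1 cyclin gene, had a log2 change of 0.36 (limma adjusted p = 0.666).

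Cytosolic ribosomal protein genes, the products that the assembly factors handle, also gave no calls. Over 79 tested, 0 had an adjusted limma p under 0.05 (background 0.0414%). An unadjusted limma p under 0.05 was found for 0 (background 2.56% higher and 6.27% lower). The median log2 change of these genes was -0.21 with all 6 libraries, and no value without A10KO replicate 13 is given. Among these genes, 14 were free of overlap and lower in A10KO (17.7%, background 11.5%), and 0 were free of overlap and higher (background 5.61%). Their library medians, as deviations in log2(TPM + 1) from the mean of the 6 libraries, were -0.02, -0.41 and 0.12 in A10KO libraries and 0.10, 0.04 and 0.15 in WT libraries. The same medians of the members were -0.01, 0.16 and 0.17 in A10KO libraries and 0.09, -0.30 and 0.05 in WT libraries. The ribosomal protein genes thus had their lowest median in A10KO replicate 13, the library with the most mitochondrial RNA, and the members had theirs in WT replicate 2. WT replicate 2 was nonetheless the lowest WT library for 59 of the 79 ribosomal protein genes (74.7%, background 29.7%). Its median log2 difference from the mean of WT replicates 1 and 3 was -0.08 for these genes and -0.40 for the members. Rps3, a small subunit protein gene, had 1066, 600 and 1374 TPM in A10KO libraries and 1323, 1401 and 1384 TPM in WT libraries. Rpl27, a large subunit protein gene, ran the other way, with 467, 1835 and 716 TPM in A10KO libraries and 551, 637 and 492 TPM in WT libraries, and A10KO replicate 13 stood far above the rest. Ribosomal protein genes have many near-identical pseudogenes, so these levels are uncertain.

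**Figure D5:**
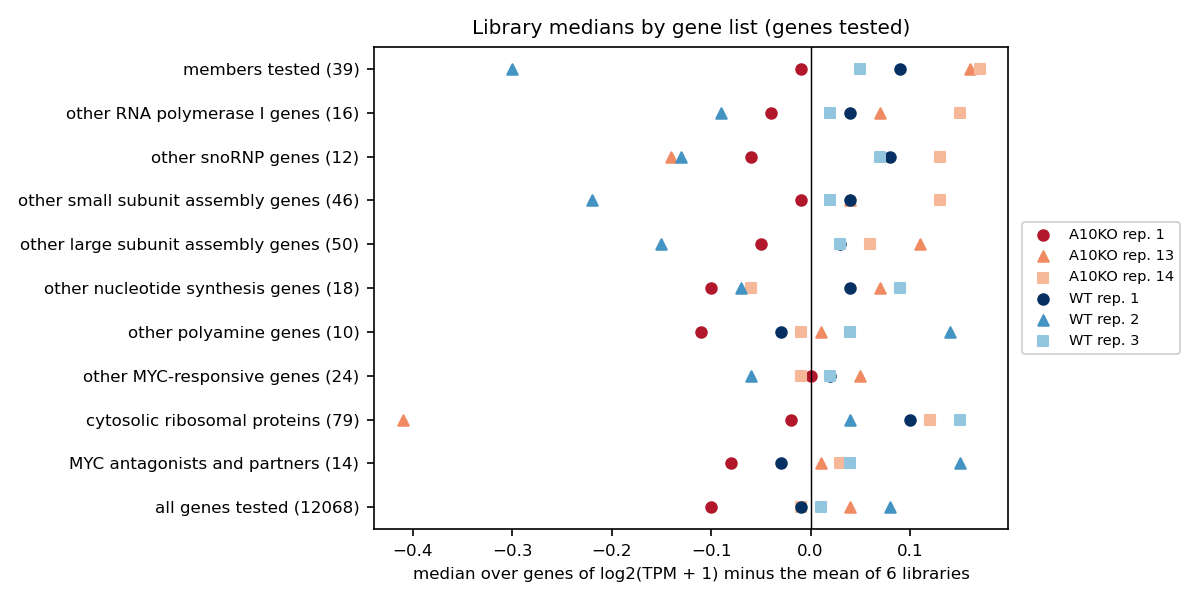
Median over the tested genes of each list (rows) of log2(TPM + 1) minus the gene's mean over the 6 libraries (horizontal axis), with 1 point per library. The members lie at -0.30 in WT replicate 2 and the ribosomal protein genes at -0.41 in A10KO replicate 13.

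The members shared little beyond their roles in position and composition. They lay on 17 chromosomes. By the longest annotated transcript of each gene, their median length was 2600 bases, beside 3120 bases over the tested protein-coding genes. Their median GC content was 51.6%, with a range of 40.4 to 59.8%, beside 50.2% over those genes. A gene on the opposite strand overlapped 13 of the 39, namely Dkc1, Rrp1b, Wdr43, Nop14, Nop56, Tsr1, Polr1a, Rrp9, Wdr12, Bop1, Pes1, Gnl3 and Noc2l (33.3%, against 36.9% of the tested protein-coding genes). Whether the counting used strand is not given in the sources used here, so reads of such a gene and its antisense partner cannot be told apart.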

How the data were processed

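RNA of 3 A10KO and 3 WT libraries of B16F10 cells was analysed from the deposited tables. The values are TPM as the authors deposited them, a unit read from the values themselves: they carry decimals and sum to 969834 to 985045 per library, although the table is presented as raw counts. No count model was therefore run, and depth is unknown. The 6 tables of single libraries and the series table were identical. The submitters' processing notes name fastp, HISAT, RSEM and the build GRCm38.p5; their versions and roles, like the strand setting, were not given in the sources used here.

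The comparison was fitted over all genes that reached 1 TPM in 3 or more libraries, on log2(TPM + 1), with limma 3.58.1 in R 4.3.3 (mean-variance trend, Benjamini-Hochberg adjustment, threshold 0.05). A fold change on this scale understates that of low genes. Levels between genes were compared in TPM, which is scaled per length. The design also named a count test, which the unit did not allow. The script was tested on simulated data.

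The members and lists were chosen with earlier results of these data known. All members were named. Values of every library were given for Myc, Mycn and Max, for members without overlap, for the 3 most positive and the 3 most negative, and for the 2 most abundant of each role. For each further list, up to 2 genes averaging 5 TPM or more were named by size of change. Around E-boxes, short windows were printed in place of whole promoters. Older symbols were matched through RefSeq, 1 listed gene was not analysed here, and of genes with 2 identifiers the lower was used. Alternatives changed the pseudocount, filter, scaling, trend and weights and left out each library; leaving out WT replicate 2 with A10KO replicate 13 was chosen after seeing the data.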

Additional observations from a re-analysis of the deposited data

How the results depend on the processing

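Of the 39 tested members, 0 passed the threshold under any of the 16 alternatives, and the lowest limma adjusted p of a member was 0.277, without A10KO replicate 14. The count of called genes over all genes tested was 5, and it ran from 0 to 25, with 25 under array weights, 20 without A10KO replicate 13, 1 without WT replicate 1 or 2, and 0 without both WT replicate 2 and A10KO replicate 13. The count of members higher at an unadjusted limma p under 0.05 was 4 (10.3%, background 2.56%). It was 1 without WT replicate 2 (2.56%, background 1.57%) and 1 without WT replicate 3 (2.56%, background 1.3%). Under the other alternatives the count of members at such a p ran from 1 to 6, and no background for them is given. The median log2 change of the members was 0.16, and ran from -0.02 without WT replicate 2 to 0.22 without A10KO replicate 1 or WT replicate 1. It was 0.06 without A10KO replicate 14, and -0.01 without WT replicate 2 and A10KO replicate 13 together. It stayed between 0.08 and 0.21 under the pseudocounts of 0.1 and 5, no filter, a filter of 5 TPM, median-of-ratios and quantile scaling, removal of mitochondrial transcripts, array weights and no trend. No paired analysis was possible because the groups share only the replicate number 1, and the cause of each reversal was not tested.

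The log2 change kept its sign under every alternative for 17 members and reversed in at least 1 for the other 22. Under array weights Myc was at -0.05, Ncl at -0.03, Wdr12 at -0.02 and Nop16 at 0.01. Under median-of-ratios scaling, quantile normalization and removal of mitochondrial transcripts, in that order, Npm1 was at 0.0, 0.11 and 0.02, Nop16 at 0.04, 0.05 and 0.05, Noc4l at 0.01, 0.02 and 0.02, and Srm at 0.02, 0.03 and 0.03. With libraries left out, the log2 change ran from -0.31 to 0.33 for Myc, -0.18 to 0.21 for Ncl, -0.18 to 0.04 for Npm1, -0.13 to 0.29 for Nop56, -0.01 to 0.52 for Nop58, -0.16 to 0.13 for Nop16, -0.07 to 0.27 for Nolc1, -0.05 to 0.36 for Rrp12, -0.16 to 0.19 for Wdr12, -0.20 to 0.01 for Wdr74 and -0.02 to 0.32 for Bop1. It ran from -0.24 to 0.12 for Ebna1bp2, -0.08 to 0.26 for Gnl3, -0.28 to 0.07 for Noc2l, -0.14 to 0.03 for Noc4l, -0.11 to 0.35 for Polr1b, -0.19 to 0.05 for Polr1c, -0.04 to 0.14 for Nob1, -0.15 to 0.43 for Tsr1, -0.25 to 0.31 for Srm, -0.01 to 0.49 for Odc1 and -0.19 to 0.21 for Cad. With depth unknown, counting error cannot be set beside the spread between libraries.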
